A study of Mus musculus with 6 samples.

Results

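The vomeronasal organ, the paired chemosensory tube at the base of the nasal septum, was examined for 9 lipocalin genes in mice with and without Cnpy1. The genes were Obp2a, Obp2b, Lcn3, Lcn4, Lcn11, Obp1a, Obp1b, Mup4 and Mup5, and they were chosen by name from 35450 genes quantified. Lcn13 and Lcn14 are older names of Obp2a and Obp2b. Poly(A) RNA came from 6 littermates at postnatal day 60. The wild-type group was Cnpy1+/+ (males 1 and 3, female 2, by replicate number), and the knockout group was Cnpy1-/- (males 1 and 2, female 3). For each mouse, RNA of the left and right organs was joined in a single directional library, after the outer bone had been removed. Cnpy1 belongs to the Canopy genes, whose products reside in the endoplasmic reticulum. The comparison asked how gene expression in the organ differs without it.

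Lipocalins are small secreted proteins folded into a barrel that encloses a hydrophobic ligand. In the nose they are made mainly by glands, and are released into the mucus that covers the sensory epithelium, where they can carry odorants and pheromones through the water layer. Lcn3 and Lcn4 encode the vomeronasal secretory proteins, known from the glands of the vomeronasal organ and the nasal septum. The major urinary proteins, encoded by the Mup genes, are the lipocalins that mice excrete in urine with bound pheromones. Mup4 and Mup5 are known from nasal, lacrimal or salivary glands and not mainly from the liver. In bulk tissue, a smaller number of gland cells and less RNA per gland cell cannot be told apart.

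The libraries held from 60786626 to 71416563 estimated reads in genes. The genotype labels were checked against Cnpy1, whose level was 303 ± 22.5 CPM in the 3 wild types (SD) against 73.7 ± 5.67 CPM in the 3 knockouts (SD), a log2 fold change of -2.04 (edgeR adjusted p = 1.755e-05). CPM are read counts relative to all reads in genes, scaled by the TMM method, and log2 fold changes are knockout minus wild type. The Y-chromosome genes Ddx3y, Eif2s3y, Kdm5d and Uty had at least 782 reads in each library labelled male and 0 in each labelled female. All 10 vomeronasal neuron markers listed were detected, with Omp, the olfactory marker protein gene of mature sensory neurons, at a mean of 684 TPM. TPM are levels corrected for transcript length, given relative to their sum in a library, and can be compared between genes.

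The promoters of 5 of the genes are shown because they belong to the 3 most abundant members and to the pair whose levels varied most between mice. Each line gives the 200 bases before the annotated start, 5′ to 3′ on the gene's strand, from RefSeq promoter sequences (GRCm38.p6) placed at the GENCODE M21 start. Capitals mark TATAAA, the core of a TATA box. The windows are chr2:25699843-25700042 (plus strand) for Obp2a, chr2:25736809-25737008 (plus) for Obp2b, chr2:25765369-25765568 (plus) for Lcn3, chrX:78091375-78091574 (minus) for Obp1a and chrX:78186577-78186776 (plus) for Obp1b.
Obp2a: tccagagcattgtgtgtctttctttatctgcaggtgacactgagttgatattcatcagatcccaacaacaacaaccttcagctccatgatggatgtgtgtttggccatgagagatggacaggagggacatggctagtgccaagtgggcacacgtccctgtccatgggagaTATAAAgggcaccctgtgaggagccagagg
Obp2b: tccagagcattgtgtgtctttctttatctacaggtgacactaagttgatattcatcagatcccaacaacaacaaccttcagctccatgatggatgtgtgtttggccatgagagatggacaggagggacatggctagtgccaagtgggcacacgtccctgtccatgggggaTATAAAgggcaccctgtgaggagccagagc
Lcn3: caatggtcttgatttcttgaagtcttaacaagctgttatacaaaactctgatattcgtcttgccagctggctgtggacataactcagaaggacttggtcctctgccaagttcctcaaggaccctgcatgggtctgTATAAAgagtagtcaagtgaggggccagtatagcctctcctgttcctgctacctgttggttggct
Obp1a: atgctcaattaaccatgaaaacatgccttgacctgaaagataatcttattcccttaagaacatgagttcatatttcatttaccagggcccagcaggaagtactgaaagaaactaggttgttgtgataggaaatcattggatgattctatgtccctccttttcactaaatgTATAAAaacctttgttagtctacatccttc
Obp1b: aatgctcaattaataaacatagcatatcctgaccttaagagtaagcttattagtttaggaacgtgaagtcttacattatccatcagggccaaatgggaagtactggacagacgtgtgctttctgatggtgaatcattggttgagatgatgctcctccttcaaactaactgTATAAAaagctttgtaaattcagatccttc

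The Obp2a and Obp2b windows were near copies, with 98.0% identity and an edit distance of 4 over 200 bases. Identity between the Obp1a and Obp1b windows was 69.0%, and Obp2a against Lcn3 reached 44.5%. TATAAA lay on the gene's strand with its first base 30 bases before the start in Obp2a, Obp2b, Obp1a and Obp1b, and 65 bases before it in Lcn3. Searched on both strands, TATAAA was found in 5 of the 8 members with a promoter in the RefSeq table. Lcn4, Lcn11 and Mup4 were without it in these windows, and Mup5 had no entry. Among 32851 RefSeq promoters, the window of the same length before the RefSeq start held TATAAA on either strand in 9.96% and on the gene's strand in 6.27%. AGAACA, a half-site of steroid hormone receptors, was found on either strand in Lcn11 and Obp1a (2 of 8, against 12.9% of all promoters). CAGCTG, an E-box core whose letters read the same on both strands, was found in Lcn3 alone (1 of 8, against 10.9%). These matches describe letters in the windows and no binding was measured.

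Obp2a (ENSMUSG00000062061.3, chr2:25700043-25703326, plus strand, GRCm38) and Obp2b (chr2:25737009-25740097, plus) each have a single annotated transcript. Their transcripts were 71.9% identical as a whole. The first 130 bases were the same, and identity was 98.7% over the first 150 bases and 65.2% over the rest. Of the 31-base words of Obp2a, 86.0% occurred in no other gene quantified, and the other 14% were shared with Obp2b alone. All 31-base words of Lcn3, Lcn4 and Lcn11 were unique. Obp1a had 84.2% unique words, with 15.8% shared with Gm5938. Obp1b had only 19.3%, because 80.7% of its words also occurred in Gm14743, so the reads of these copies were divided by estimation. Mup4 (62.0% unique) shared words with 40 other genes and Mup5 (64.0%) with 41, and the transcripts of Mup4 and Mup5 were 92.0% identical. Levels of Obp1b, Mup4 and Mup5 are therefore uncertain as single genes.

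Obp2a, an odorant-binding lipocalin, was the most abundant gene in every library by TPM. It held 17.7%, 14.4% and 13.1% of the TPM total in wild-type replicates 1, 2 and 3, and 17.6%, 19.75% and 14.7% in knockout replicates 1, 2 and 3. Knockout 2 was highest and wild type 3 lowest, and the genotypes overlapped. Its share of reads in wild type 1 was 7.59% (Wilson 95% interval 7.588 to 7.6), against 5.44% (5.432 to 5.443) in wild type 3. Intervals of this kind cover counting error only, and they were far narrower than the distance between these mice.

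Obp2b, its relative, was second in every library. Its shares of the TPM total were 10.1%, 8.47% and 7.01% in wild type and 9.41%, 11.4% and 7.10% in the knockout. The same mouse, knockout 2, was highest again, and wild type 3 and knockout 3 were both low. Lcn3 (chr2:25765569-25768099, plus), which encodes vomeronasal secretory protein 1, was the third gene by TPM in all 6 libraries. It held 6.35%, 5.51% and 5.07% in wild type and 5.88%, 6.91% and 5.195% in the knockout, with overlapping groups.

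Lcn4 (chr2:26667674-26671282, minus), which encodes vomeronasal secretory protein 2, took 2.65%, 2.26% and 2.36% of the TPM total in wild type and 2.575%, 3.15% and 2.47% in the knockout. It had rank 4 in knockout 2 and rank 5 in the other libraries. The gene between Lcn3 and Lcn4 was Wfdc18, a member of the whey acidic protein family. Lcn11 (chr2:25777017-25780279, plus), a lipocalin of the same cluster, stood at 263, 237 and 261 TPM in wild type and at 255, 356 and 245 TPM in the knockout. Knockout 2 stood apart here, and the other 5 libraries lay between 237 and 263 TPM. Lcn11 was thus 503 to 692 times lower than Obp2a within a library.

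**Figure D1:**
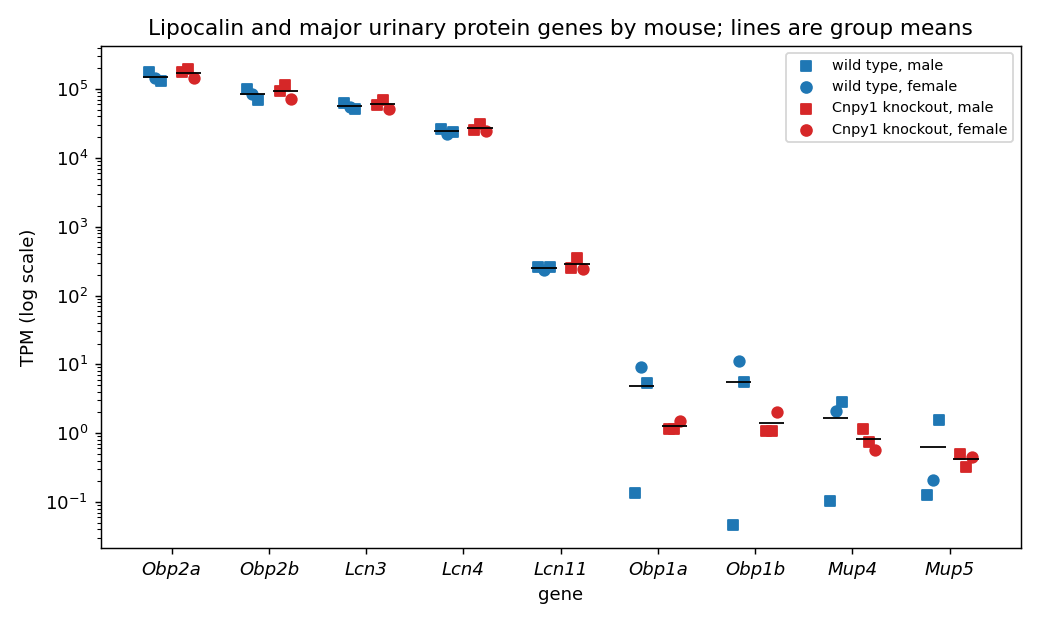
TPM of each gene (log axis) in each mouse, with wild type in blue, knockout in red, males as squares and females as circles, and lines at the group means. The 4 genes from Obp2a to Lcn4 sit at or above 22590 TPM in every mouse, Lcn11 sits near 270 TPM, and the 4 genes at the right are low, with wild type 1 at the bottom of each.

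The other 4 genes had few reads, from 1.5 for Obp1b in wild type 1 to 299 for Obp1b in wild type 2. Obp1a (chrX:78085505-78091374, minus), an odorant-binding protein of nasal glands, had 4, 228 and 164 reads in wild type and 31, 32 and 41 in the knockout. Obp1b (chrX:78186777-78192292, plus), its relative, had 1.5, 299 and 177 estimated reads in wild type and 30, 32 and 60 in the knockout. For both genes wild type 2 and 3 were high, the 3 knockouts lay between, and wild type 1 was far below every other mouse. On the TPM scale Obp1a was 0.133, 8.999 and 5.42 in wild type and 1.17, 1.14 and 1.495 in the knockout. Wild type 1 had 68450938 reads in genes, more than all libraries but wild type 3, and its Wilson 95% interval for Obp1a, 2.27e-06% to 1.50e-05% of reads, lay below that of each other library, the nearest being 3.55e-05% to 7.16e-05% in knockout 1. A count of 0 in a library would allow up to 3 reads, or 0.042 to 0.0494 CPM.

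Mup4 (chr4:59956804-59960710, minus) had 4, 70 and 111 reads in wild type and 39, 27 and 20 in the knockout. Mup5 (chr4:61831319-61835233, minus) had 5, 7 and 62 reads in wild type and 17, 12 and 16 in the knockout. As with Obp1a and Obp1b, wild type 1 had the fewest reads of each, and for Mup5 wild type 2 was also low. In TPM, the means over 6 libraries were 3.45 for Obp1b, 3.06 for Obp1a, 1.25 for Mup4 and 0.529 for Mup5, and the ranges of neighbours in this order overlapped. The TPM ranges of Obp2a, Obp2b, Lcn3, Lcn4 and Lcn11 did not overlap with each other, so their order was the same in every mouse.

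Together the 9 genes held 36.85%, 30.7% and 27.6% of the TPM total in the wild-type mice and 35.5%, 41.25% and 29.5% in the knockouts. The means were 31.7% ± 4.71 in wild type and 35.4% ± 5.89 in the knockout (SD, n = 3 each), a difference smaller than either SD. As shares of reads, which favour long transcripts, the sums were 15.4%, 12.2% and 11.2% in wild type and 14.7%, 18.0% and 12.1% in the knockout. On that scale the log2 ratio of the means, knockout over wild type, was 0.21. The log2 shares of the 3 knockouts had an SD of 0.29, a spread between mice and not the error of this ratio. Single mice moved the ratio: it was 0.05 without knockout 2, 0.11 without wild type 3, 0.34 without knockout 3 and 0.35 without wild type 1. The last pair were larger than that SD. The lipocalins were a larger part of the length-corrected total than of the reads. The 4 low genes together added at most 0.00223% of the TPM total.

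**Figure D2:**
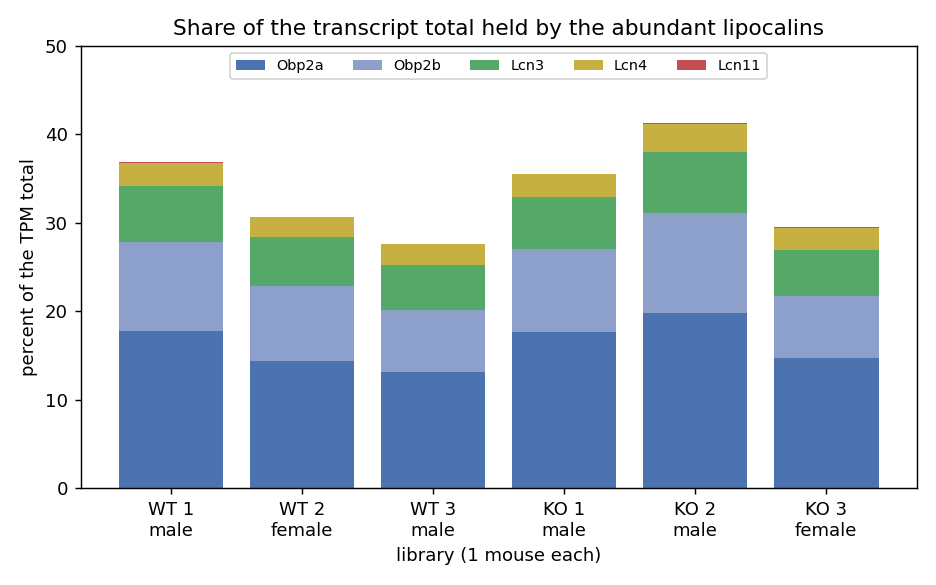
Percent of the TPM total held by Obp2a, Obp2b, Lcn3, Lcn4 and Lcn11 in each library, stacked, with 1 bar a mouse. The bars run from 27.6% in wild type 3 to 41.25% in knockout 2, and Obp2a is the largest piece of each.

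The make-up of this lipocalin fraction varied less than its size. Obp2a made up 46.9% to 49.8% of the members' TPM, Obp2b 24.1% to 27.6%, Lcn3 16.6% to 18.4% and Lcn4 7.19% to 8.55%. Within a mouse, Obp2a was 1.70 to 2.07 times as abundant as Obp2b. The ratio of Obp2a to Lcn3 was 2.79, 2.61 and 2.59 in wild type (2.66 ± 0.111, SD, n = 3) and 3.00, 2.86 and 2.825 in the knockout (2.89 ± 0.0912, SD, n = 3). The genotypes did not overlap for this ratio, but they overlapped for the 4 others computed (Obp2a to Obp2b, Obp2a to Lcn11, Lcn3 to Lcn4 and Obp1a to Obp1b), and the difference was not tested. From the lowest to the highest mouse, Obp2a varied 1.503-fold, Obp2b 1.63-fold, Lcn3 1.36-fold, Lcn4 1.39-fold and Lcn11 1.501-fold on the TPM scale. Obp1a varied 67.6-fold, Obp1b 241-fold, Mup4 27.7-fold and Mup5 12.4-fold.

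None of the 9 genes was called between genotypes, that is, reached an adjusted p under 0.05 in edgeR's quasi-likelihood test. No member had an unadjusted p under 0.05, and DESeq2 and limma-voom called 0 as well. Of all 16679 genes tested, edgeR called 0.761% (0.0779% higher and 0.683% lower in the knockout), and 10.5% had an unadjusted p under 0.05. The groups overlapped for all 9 members, while they did not overlap for 16.2% of all genes tested. All 9 members passed the filter on low counts. The median log2 fold change over the 9 was 0.17, against 0.01 over all genes tested.

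The 5 abundant genes all had values above 0. Obp2a came to 0.28 on the log2 scale (SE 0.20, edgeR adjusted p = 0.702), with a 95% interval of -0.18 to 0.74. In linear terms this is 1.21-fold, with an interval from 0.884 to 1.67. For Obp2b the value was 0.21 (SE 0.24, interval -0.35 to 0.76). Lcn3 had 0.17 (SE 0.18, interval -0.24 to 0.58), Lcn4 0.25 (SE 0.16, interval -0.12 to 0.63) and Lcn11 0.25 (SE 0.18, interval -0.17 to 0.67). These intervals leave room for a rise of up to 1.70-fold or a fall to 0.787 of the wild-type level, so a missed threshold does not show that the levels were equal. Knockout 2, the highest mouse for all 5, weighed on each value. With libraries left out in turn, Obp2a lay between 0.11 without knockout 2 and 0.48 without wild type 1, and Lcn4 between 0.07 and 0.38 without the same mice. Without knockout 2, the log2 fold changes of Obp2b, Lcn3 and Lcn11 were -0.034, -0.016 and -0.0093.

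The 4 low genes all had values below 0, with wide intervals. The log2 fold change of Obp1a was -1.81 (SE 0.92, interval -3.94 to 0.31, edgeR adjusted p = 0.551) and that of Obp1b was -1.88 (SE 1.06, interval -4.31 to 0.55, adjusted p = 0.597). Mup4 had -0.93 (interval -2.77 to 0.91) and Mup5 -0.52 (interval -2.35 to 1.32). The direction for Obp1a and Obp1b came from wild type 2 and 3, since wild type 1 lay below all the knockouts. Without wild type 1, Obp1a was called, at -2.38 (edgeR adjusted p = 0.0144, against 0.551 to 0.971 under its other alternatives), while Obp1b was at -2.46 (adjusted p = 0.0547) and Mup4 at -1.48 (adjusted p = 0.263). Without wild type 2, Obp1a was at -1.02 and Obp1b at -0.89. Without wild type 3, Mup4 was at -0.33, and Mup5 turned to 1.35 (adjusted p = 0.492). With limma-voom the values were -0.54 for Obp1a, -0.0071 for Obp1b, -0.14 for Mup4 and 0.23 for Mup5.

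**Figure D3:**
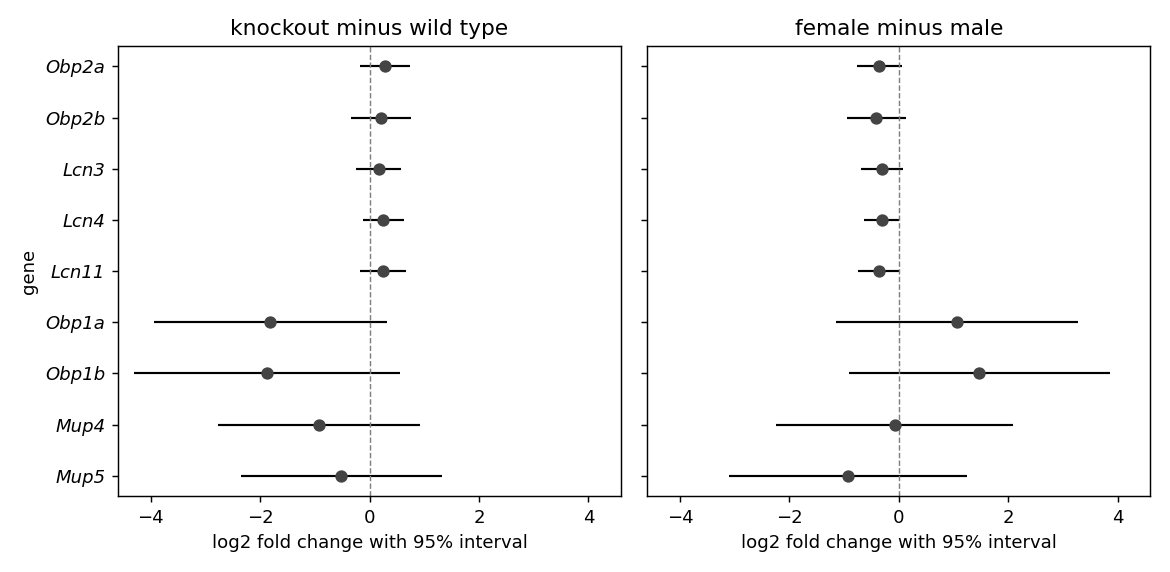
Log2 fold change of each gene with its 95% interval from the edgeR fit, knockout minus wild type at the left and female minus male at the right. Every interval in both panels includes 0, from Obp2a (-0.18 to 0.74) to Obp1b (-4.31 to 0.55) at the left.

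Because genes that share sequence can trade reads in the estimates, the reads of named relatives were also summed before the fit. Obp2a and Obp2b share 31-base words, as do Mup4 and Mup5, whereas Obp1a and Obp1b share none, their longest common run being 25 bases. Obp2a with Obp2b gave 0.25 (interval -0.23 to 0.74, edgeR adjusted p = 0.755). Obp1a with Obp1b gave -1.85 (interval -4.14 to 0.44, adjusted p = 0.579), and Mup4 with Mup5 gave -0.80 (interval -2.49 to 0.89, adjusted p = 0.785). The adjusted p of each sum lay between those of its single genes. Obp1b with its copy Gm14743 had 3, 373 and 184 reads in wild type and 35, 33 and 78 in the knockout, with wild type 1 again lowest and wild type 2 highest.

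Sexes were compared in the same libraries with genotype kept as a term, 4 males against 2 females. All 5 abundant genes had lower values in females. The log2 differences, female minus male, were -0.36 for Obp2a, -0.41 for Obp2b, -0.31 for Lcn3, -0.31 for Lcn4 and -0.36 for Lcn11. Only the sexes of Lcn11 did not overlap, with females at 237 and 245 TPM and males at 255 TPM or more. Such a gap with females lower occurred in 6.48% of all genes tested. No member was called by edgeR (adjusted p from 0.856 to 0.993, against 0.042% of all genes called) or by DESeq2. In edgeR 0 members had an unadjusted p under 0.05, a level that 5.5% of all genes reached, 3.07% with lower values in females. In DESeq2 Lcn4 had an unadjusted p of 0.0131 (adjusted p = 0.63).

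Single mice moved these sex values by more than 1.5 times. They were furthest from 0 without wild type 2, a female, at -0.53 for Obp2a, -0.74 for Obp2b, -0.48 for Lcn3, -0.40 for Lcn4 and -0.51 for Lcn11. Without knockout 3, the other female, Obp2a, Obp2b and Lcn3 were at -0.19, -0.11 and -0.14, and without knockout 2 both Lcn4 and Lcn11 were at -0.21. Without wild type 3, the male that lay below both females in the members' summed share, all 5 had an unadjusted p under 0.05, from 0.00184 for Obp2a to 0.0499 for Lcn11, and edgeR adjusted p from 0.265 to 0.459. The share of 5.5% of all genes under 0.05 holds for the fit with all libraries and was not counted for this one. All 5 values stayed below 0 whichever library was left out, and none was called.

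The 9 genes together held 35.3% ± 5.68 of the TPM total in males (SD, n = 4) and 30.1% ± 0.840 in females (SD, n = 2). In the sex test Obp1a and Obp1b had the opposite sign, at 1.06 and 1.47, while Mup4 was at -0.08 and Mup5 at -0.93. With libraries left out in turn, Obp1a ran from 0.19 without wild type 2 to 2.31 without wild type 3, and Obp1b from 0.77 to 2.92 without the same mice. Without wild type 1, Obp1b was at 0.89 with an unadjusted p of 0.00557 (edgeR adjusted p = 0.999). Mup4 ran from -0.90 without wild type 2 to 1.06 without wild type 3, and Mup5 from -2.01 without knockout 3 to 0.15 without wild type 3, so the signs of both Mup genes turned with single mice left out. Each genotype had 1 female, so the genotype-by-sex term rests on single mice. It called no member (edgeR adjusted p from 0.958 to 0.968, 0 with an unadjusted p under 0.05, 0 by DESeq2), against 0.024% of all genes called and 4.5% with an unadjusted p under 0.05.

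The 5 abundant members shared a tight pattern over the 6 mice, and the 4 low ones lay far from it. Each gene's log2 CPM was centred on its mean, and genes were compared by the root mean square difference over the 6 libraries, in log2 units. Obp2a differed by 0.074 from Lcn3, by 0.095 from Obp2b, by 0.100 from Lcn4 and by 0.157 from Lcn11. Over 10778 genes that averaged 10 CPM or more, the median distance to Obp2a was 0.307. Obp2a and Obp2b, whose promoter windows were nearly the same, were thus no closer to each other in pattern than Obp2a and Lcn3. Obp2a and Obp1a were 2.085 apart.

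**Figure D4:**
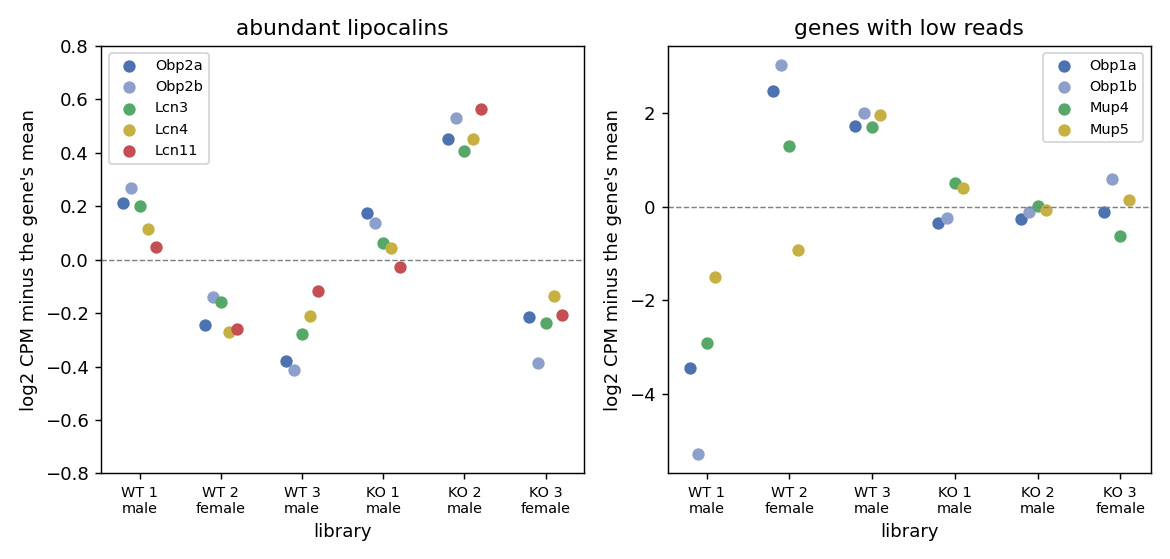
Log2 CPM of each member minus its own mean, by library, with the 5 abundant genes at the left and the 4 low genes at the right on a wider axis. The abundant genes move together between -0.41 and 0.56, highest in knockout 2, while Obp1a, Obp1b, Mup4 and Mup5 all have their lowest value in wild type 1.

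The genes outside the members with patterns most like Obp2a were Lrrc26 (distance 0.075), Cdo1 (0.076), Chdh (0.077), Qsox1 (0.081) and Palmd (0.084). Lrrc26 encodes an auxiliary subunit of BK potassium channels in secretory epithelia, and Qsox1 a sulfhydryl oxidase that forms disulfide bonds in secreted proteins. Cdo1 encodes cysteine dioxygenase, Chdh choline dehydrogenase and Palmd palmdelphin. Lrrc26 had 78.4, 62.7 and 58.0 CPM in the wild types and 81.3, 89.0 and 60.9 CPM in the knockouts, so that knockout 2 was its highest mouse and wild type 3 its lowest, as for Obp2a. Genes of 1 library share its depth and tissue content, so likeness over 6 mice is a description.

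Among the low genes, Obp1a was 0.675 from Mup4, 0.847 from Obp1b and 1.638 from Mup5. Mup5 was nearer to Mup4 (1.129) and Lcn11 (1.145) than to Obp1a or Obp1b (2.257). In a ranking added after the values were seen, over 14716 genes that averaged 1 CPM or more, the gene outside the members nearest to Obp1a was Gm14744 (distance 0.393, against a median of 1.885). RefSeq lists Obp1f as its synonym, and it too lies on the X chromosome, at chrX:77864758-77870033. It had 5, 221 and 303 reads in wild type and 69, 46 and 71 in the knockout. Wild type 1 was again the lowest library. The next such gene, Col10a1, a collagen gene of hypertrophic cartilage, was at a distance of 1.095. These distances rest on 4 reads of Obp1a and 5 of Gm14744 in wild type 1.

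Neighbouring genes on the chromosome differed widely in level. Obp2a, Obp2b, Lcn3 and Lcn11 lie within 80.2 kb on chromosome 2, and Lcn4 lies 887.4 kb beyond Lcn11. Inside this stretch, Bmyc, a Myc relative that starts 6.7 kb from the start of Obp2a, had a mean of 69.8 TPM (range 65.4 to 75.3). Lcn8, Lcn5, Lcn6 and Lcn10, lipocalin genes of the epididymis that start 46.9 to 17.3 kb before Obp2a, had 0 reads in all 6 libraries. Lcn9, 123.1 kb after the start of Obp2a, also had 0 reads. Of 44 annotated genes within 100 kb of a member, 33 were quantified, 26 of them with a mean under 1 TPM. Of these neighbours 9 were tested and edgeR called 0 between genotypes.

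**Figure D5:**
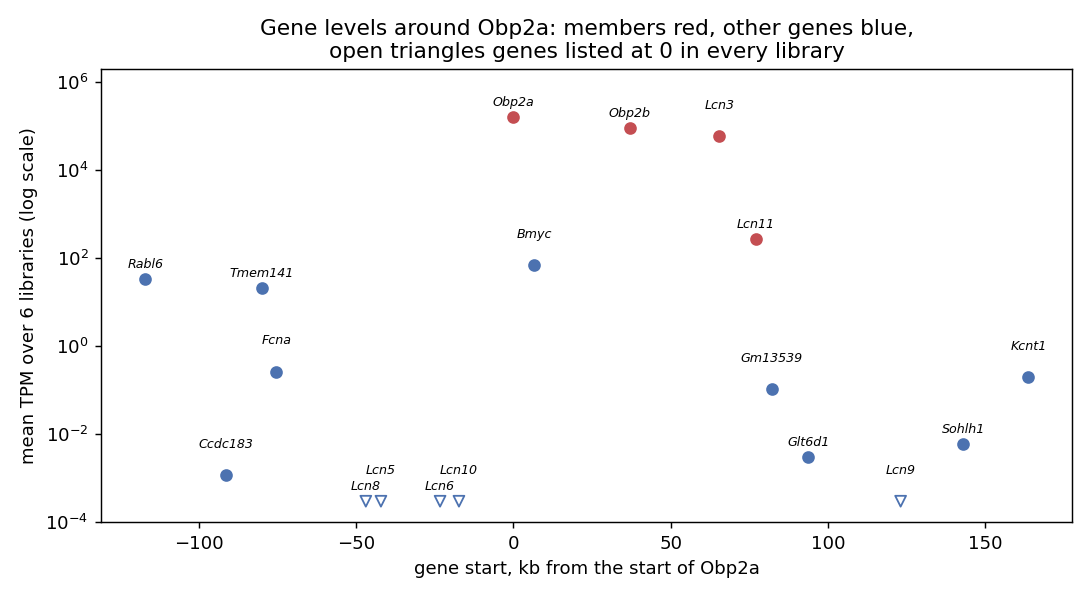
Mean TPM over the 6 libraries (log axis) of genes around Obp2a, by distance of the gene's start from that of Obp2a in kb, with members in red and other genes in blue. Open triangles are genes listed at 0 in every library; Lcn8, Lcn5, Lcn6 and Lcn10 before Obp2a and Lcn9 after Lcn11 are among these.

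Of 62 other genes of the lipocalin family, listed by name, 43 had 0 reads in every library and 56 had a mean under 1 TPM. Most of them were further Mup genes and pseudogenes. The highest was Lcn2, an iron-siderophore-binding protein of mucosal defence, with 386, 409 and 369 TPM in wild type and 578, 348 and 701.5 TPM in the knockout. Its log2 fold change was 0.53 (edgeR adjusted p = 0.323), and the groups overlapped. Apod, apolipoprotein D, followed at a mean of 249.7 TPM, then the acute-phase gene Orm1 at 22.1 TPM, Rbp4, the plasma retinol carrier, at 7.63 TPM and C8g, a complement component, at 2.61 TPM. Of the 7 tested, edgeR, DESeq2 and limma-voom called 0, 1 had an unadjusted p under 0.05 in edgeR (10.5% of all genes tested), and their median log2 fold change was 0.20. Because the list was made by name, Gm14744 (0.154 to 9.29 TPM), Gm14743 and Gm5938 were not in it.

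Other products of nasal glands gave values beside those of the lipocalins. Of 23 gland secretory genes tested from a list of 30, edgeR called 0, 13 had an unadjusted p under 0.05, 19 had values above 0, and the median log2 fold change was 0.36. Groups did not overlap for 9 of the 23. Over all genes tested, 10.5% had an unadjusted p under 0.05 in edgeR, and groups did not overlap for 16.2%. The highest were Dmbt1, a mucin-like scavenger protein (0.36, edgeR adjusted p = 0.761), Ltf, lactoferrin (0.31, adjusted p = 0.456), and Bpifa1, an airway surface protein (-0.16, adjusted p = 0.442). DESeq2 called 7 of the list: Aqp5, Lyz2, Muc5ac, Muc5b, Pigr, Sox9 and Spdef, each with a value above 0, from 0.27 for Aqp5, a water channel of gland cells, to 3.71 for Muc5ac, a gel-forming mucin. Limma-voom called 0. The gland list summed to 13330 ± 439.5 TPM in wild type and 14670 ± 2482 TPM in the knockout (SD, n = 3 each). With TPM rescaled to the total outside the 9 members, the sums were 19610 ± 2040 and 22890 ± 4604.

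Salivary and lacrimal gland genes were uneven between mice. Dcpp3, a secreted protein of salivary glands, had 78.8, 67.9 and 5.79 TPM in wild type and 2261, 837 and 25.5 TPM in the knockout. Knockout 1 and 2 were far above the rest. Over the 11 annotated genes of the list, the summed level ranged from 11.8 to 97.15 TPM in wild type and from 37.7 to 2583 TPM in the knockout, and none was at 0 in all libraries. Of the 7 tested, 6 had values above 0 (median 3.415), 4 had an unadjusted p under 0.05 in edgeR (10.5% of all genes tested), and edgeR, DESeq2 and limma-voom called 0. The part of this in the member values was not tested.

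Of the neuron markers, 2 of 10 vomeronasal genes fell in the knockout: Gnao1, the G protein subunit of basal neurons (-0.41, edgeR adjusted p = 0.0143), and Stom, stomatin (-0.36, adjusted p = 0.0356). In edgeR 7 of the 10 had an unadjusted p under 0.05, against 10.5% of all genes tested. DESeq2 called 5 (Gnao1, Gng8, Omp, Stom and Trpc2), against 409 of all 16679 genes. Groups did not overlap for 8 of the 10, against 16.2% of all genes tested. Gnai2, the G protein subunit of apical neurons, and Meis2, an apical transcription factor, were among these 8 with higher values in the knockout, at 0.17 and 0.14. The list's median was -0.28. Since the 9 members took 27.6% to 41.25% of the TPM total, the TPM of every other gene moves with theirs, so TPM were rescaled here too. On that scale the vomeronasal list's sum stood at 4287 ± 103 in wild type and 3801 ± 137 in the knockout (SD, n = 3 each). Among the main olfactory neuron genes, Slc17a6, a glutamate transporter gene, fell (-0.38, edgeR adjusted p = 0.0203), 1 of 10, and their median was -0.14. In edgeR 4 of these 10 had an unadjusted p under 0.05, the groups did not overlap for 4 (Rtp2, Ano2, Slc17a6 and Cngb1, each lower in the knockout), and DESeq2 called 2 (Ano2 and Slc17a6). The groups overlapped for the others: Rtp1 (0.05), Adcy3 (0.10), Cnga4 (-0.04), Cnga2 (-0.09), Gnal (-0.10) and Cnga3 (-0.24). Of the genes of all lists, edgeR called 1 without wild type 1, 0 without wild type 2, wild type 3 or knockout 1, and 2 without knockout 2. The part of these values in those of the lipocalins was not tested.

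Of the other lists, edgeR called 0 of 12 supporting cell genes (2 with an unadjusted p under 0.05, 1 called by DESeq2, median -0.10), led by Reg3g, Cbr2 and Ugt2a2. It called 0 of 12 motile cilia genes (1 with an unadjusted p under 0.05, 0 by DESeq2, median 0.10) and 0 of 7 blood and liver genes (0 with an unadjusted p under 0.05, 0 by DESeq2, median 0.13). Among 9 androgen and growth hormone response genes, which include regulators of Mup genes in the liver, edgeR and DESeq2 called 0 between genotypes, 0 had an unadjusted p under 0.05, and the median was 0.07. Between the sexes, edgeR called 0 of these 9 and DESeq2 2, against 7 and 58 of all genes tested. Tsc22d3, Klf9 and Fkbp5, glucocorticoid-responsive genes, were the highest of this list, and its summed level ranged from 153.8 to 175.6 TPM over the 6 libraries. Median sex values, female minus male, were -0.36 for the abundant members and -0.0004 over all genes tested. By list they were -1.48 (salivary and lacrimal), -0.33 (gland secretory), -0.27 (supporting cell), -0.26 (blood and liver), -0.12 (main olfactory), -0.11 (androgen and growth hormone), -0.07 (cilia), -0.01 (vomeronasal neuron) and 0.38 (other lipocalins). The part of these in the members' sex values was not tested.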

How the data were processed

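Poly(A) RNA of 6 vomeronasal organ samples was sequenced. Per the file headers, each library's deposited table gives for every transcript an estimated count and a TPM value. The column names are those of Salmon output, where estimated counts apportion ambiguous reads among transcripts and TPM correct for effective length. The submitters' processing notes name Trim Galore 0.6.6, Salmon 1.9.0 and DESeq2, and mm10/GRCm38. Their parameters are not given in the sources used here.

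Of 117081 transcripts, 115942 matched GENCODE M21 (GRCm38), and the 1139 others, with 0.304% of reads, were left out. Estimated counts were summed per gene and rounded, TPM were summed. The main test was edgeR 4.0.16 (quasi-likelihood, TMM, filterByExpr, genotype as the only term), with Benjamini-Hochberg adjustment over 16679 genes and calls at an adjusted p under 0.05. Sex was tested beside genotype, then their interaction. Each library is 1 mouse. The common biological coefficient of variation was 12.8%. On simulated counts for 16679 genes, the genotype test recovered 99% of 100 genes changed by 1 on the log2 scale and 100% of 100 changed by 2, and the interaction test 31% and 96%. Every simulated gene had the same variation, near the common value, and the changed genes averaged over 1 CPM. The members varied more, with SEs from 0.16 (Lcn4) to 1.06 (Obp1b) against a median of 0.087 over all genes tested. These percentages therefore do not hold for the members. DESeq2 1.42.0, limma 3.58.1 (voom, and on log2(TPM + 1)), other scalings and filters, robust estimates, sex or the replicate number as a term, males alone and each library left out were the alternatives. Words of 31 bases were compared over all quantified transcripts.

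The members and the gene lists were chosen with earlier results of these data known. Named by rule were the 9 members, at most the 3 highest genes of each list and any called, the 5 highest other lipocalins, and the 5 genes most like Obp2a. Wfdc18, Bmyc, the other Lcn genes around Obp2a, Gm14743, Gm14744, Gm5938, Col10a1 and the genes that check the labels were named outside that rule. So were genes that DESeq2 called or whose groups did not overlap, and the remaining main olfactory neuron genes. Lacrt, a listed lacrimal gene, did not match the annotation by name.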

Additional observations from a re-analysis of the deposited data

How the results depend on the processing

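The 9 genes were fitted under 17 alternatives each (153 values). Of these, 147 kept direction and side of the threshold, 5 reversed and 1 passed the threshold. Obp1a was called without wild type 1, so that between 0 and 1 members were called when libraries were left out in turn. Without knockout 2, Obp2b, Lcn3 and Lcn11 reversed to -0.034, -0.016 and -0.0093 (the lowest values when libraries were left out in turn; the highest were 0.41, 0.32 and 0.40). Mup5 reversed to 0.23 with limma-voom and to 1.35 without wild type 3 (range -0.97 to 1.35). The cause was not tested. The log2 ratio of the members' share of reads, knockout over wild type, was 0.21, and 0.05 to 0.35 over the alternatives. Each of these moved from 0.21 by less than the SD of the knockouts' log2 shares (0.29), a spread between mice and not the error of the ratio. The values of 0.35 without wild type 1, 0.34 without knockout 3 and 0.30 with males only were larger than that SD. In the sex test with genes of low counts kept, Obp2a, Lcn3, Lcn4 and Lcn11 had an unadjusted p under 0.05 (0.0347, 0.049, 0.0235 and 0.0294), with an edgeR adjusted p of 0.937 for each.

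Over all genes, the genotype test called 127, and 409 with DESeq2, 76 with males only, 72 on log2(TPM + 1) and 69 to 96 with a library left out. Of the listed genes it called 3, and 0 without scaling factors, 6 with low counts kept, 15 with DESeq2, 0 on log2(TPM + 1) and 0 to 3 with a library left out. The sex test called 7, and 12 with low counts kept, 58 with DESeq2 and 4 to 10 with a library left out. The interaction called 4, and 7 without scaling factors, 22 with low counts kept and 39 with DESeq2.

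Wild-type and knockout mice of the same number had correlations of 0.155, -0.094 and 0.23. Those of different numbers had -0.293 to 0.171, and these ranges overlapped. With the replicate number as a block, 154 genes, 8 listed genes and 0 members were called. The values of Obp1a, Obp1b, Mup4 and Mup5 in wild type 1 rest on 1.5 to 5 reads, in a library deeper than all but wild type 3.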
